A study of Mus musculus with 68 samples.

Results

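The 10 genes described here are markers of the primitive streak and responders to WNT signalling: T, Mixl1, Eomes, Evx1, Fgf8, Wnt3, Wnt8a, Sp5, Axin2 and Lef1. They were picked by name from 55335 gene rows, and each of the 10 has a row in all 3 count tables and passed the filter on low counts in every fit. RNA was sequenced from mouse embryonic stem cells (ESCs) of the E14JU line, strain 129/Ola, which were untreated and grown on gelatin in serum and LIF. In these cells the replication machinery was altered at proteins that hand old histones to the new DNA strands. The rescue experiment compared WT#1, the histone-binding mutant clone MCM2-2A#2 and MCM2-R#2, a line derived from the mutant in which the mutation was reverted, with 4 numbered samples each. In the clone experiment 7 WT clones and 8 MCM2-2A clones were analysed, in batches dated January, March and August, and another labelled WT clone of January, WT#5, was not analysed here. The POLE4 experiment compared WT#1 with 3 clones lacking the polymerase epsilon subunit POLE4, POLE4-KO#1, POLE4-KO#2 and POLE4-KO#3, with 3 libraries each. Each numbered line is 1 clone, so in the rescue and POLE4 experiments a difference between lines cannot be told apart from a difference between clones. The samples of MCM2-R#2 carry a wildtype genotype label and were tied to the reverted line through the sample table of the study.

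The primitive streak is where cells of the gastrulating epiblast turn into mesoderm and endoderm. WNT ligands stabilise beta-catenin, which enters the nucleus, binds TCF and LEF proteins and turns on target genes, among them Axin2, Sp5 and T. Wnt3 is required for the streak to form, and T, Eomes and Mixl1 are transcription factors of the cells that pass through it. In ESCs kept in serum and LIF these genes are known to be expressed at low and uneven levels, with cells that have started toward the streak mixed among pluripotent ones. In bulk RNA, fewer expressing cells and less RNA per cell cannot be told apart.

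Totals over gene and repeat rows ran from 23161127 to 35602583 counts in the 14 rescue libraries, from 18369196 to 26975105 in the 12 POLE4 libraries and from 27854706 to 67467849 in the 39 clone libraries. In the rescue and clone tables the sums of 5 core pluripotency genes (Pou5f1, Sox2, Nanog, Sall4 and Utf1) were between 1710 and 2670 CPM, which are counts scaled to library size, and in the POLE4 table between 2000 and 2610 CPM. The ESC label was thus met by its markers in every group. Mcm2, in which the 2A mutation lies, was at 397 CPM or more in each WT#1 sample of the rescue experiment, at 225 ± 7.93 CPM (SD, n = 4) in MCM2-2A#2 and at 213 ± 5.32 in MCM2-R#2, and its level does not check a point mutation. Pole4 was at 56.2 to 61.3 CPM in WT#1 and at 2.87 to 8.35 CPM in the 9 knockout libraries. The study calls same-line samples biological replicates, and the labels do not say how they were grown apart. In the rescue and POLE4 experiments and in tests among clones, the p-values thus measure the spread between these samples of a clone. Between genotypes in the clone experiment they measure the spread between clones in a batch. The 3 tables were normalised separately, and tests were made within a table.

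To show where beta-catenin partners could bind, the 250 bases before the annotated start were searched for the TCF/LEF core CTTTGA on both strands. RefSeq promoters (GRCm38.p6) matched 7 of the 10 genes. T and Sp5 are shown because they held the core and gave some of the largest differences below, and Axin2 and Evx1 because their windows did not hold it. All 4 lie on the + strand, and capitals mark the core or its reverse complement TCAAAG.
T, chr17:8434173-8434422: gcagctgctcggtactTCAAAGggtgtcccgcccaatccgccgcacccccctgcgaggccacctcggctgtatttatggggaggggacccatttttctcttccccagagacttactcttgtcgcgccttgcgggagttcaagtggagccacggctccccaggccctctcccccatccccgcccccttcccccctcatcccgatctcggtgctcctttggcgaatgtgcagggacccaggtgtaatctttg
Sp5, chr2:70474673-70474922: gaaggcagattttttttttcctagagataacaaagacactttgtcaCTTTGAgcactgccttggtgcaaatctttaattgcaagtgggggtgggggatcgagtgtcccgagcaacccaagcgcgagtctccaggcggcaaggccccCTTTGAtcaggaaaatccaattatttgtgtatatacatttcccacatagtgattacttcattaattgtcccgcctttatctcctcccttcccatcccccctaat
Axin2, chr11:108920099-108920348: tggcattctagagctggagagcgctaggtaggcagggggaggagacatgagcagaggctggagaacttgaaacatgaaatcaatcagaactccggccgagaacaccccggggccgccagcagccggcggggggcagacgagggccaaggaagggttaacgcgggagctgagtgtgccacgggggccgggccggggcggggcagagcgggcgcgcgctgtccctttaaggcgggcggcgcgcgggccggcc
Evx1, chr6:52313248-52313497: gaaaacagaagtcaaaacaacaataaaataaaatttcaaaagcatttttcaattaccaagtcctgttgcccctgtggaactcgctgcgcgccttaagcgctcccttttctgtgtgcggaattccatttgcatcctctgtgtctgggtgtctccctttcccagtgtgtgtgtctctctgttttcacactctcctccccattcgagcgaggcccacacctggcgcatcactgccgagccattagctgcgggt

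The core stood once before T, starting 234 bases upstream as the reverse complement, and 2 times before Sp5, at 204 and 104 bases upstream. Of 4 annotated Lef1 starts, the one at chr3:131156294 had 2 copies. The windows of Wnt3, Eomes, Axin2 and Evx1 had none. Of all 32851 promoters in the reference, 13.8% held the core in the same window. The T-box half-site GGTGTGA, which T and Eomes proteins can bind, stood in 3.33% of all promoters and in none of these windows. The letters of a motif describe a sequence and not a bound site.

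The genes lie apart in the genome except for Wnt3 and Axin2, which share chromosome 11. In GENCODE vM21 on GRCm38, T spans chr17:8434423-8442496 (+), Sp5 chr2:70474923-70477729 (+), Wnt3 chr11:103774150-103817957 (+) and Fgf8 chr19:45736798-45742915 (-). Mixl1 spans chr1:180693043-180697034 (-), Eomes chr9:118478212-118486132 (+), Evx1 chr6:52313498-52318378 (+), Wnt8a chr18:34542313-34548273 (+), Axin2 chr11:108920349-108950783 (+) and Lef1 chr3:131110471-131224356 (+). Antisense genes overlap exons of Eomes, Evx1, Axin2 and Lef1, and the strand setting of the counting was not given in the sources used here. The largest of these antisense genes was Evx1os, at up to 1.61 CPM in the clone libraries, within the range of Evx1 itself, so Evx1 values carry that uncertainty.

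Per kilobase of exon, WT#1 of the rescue experiment expressed Sp5 highest, at 6.63 ± 3.47 CPM per kb (SD, n = 4), then T at 5.86 ± 3.14, Axin2 at 5.76 ± 1.65 and Lef1 at 4.00 ± 0.379. Wnt3 (2.40 ± 1.13), Fgf8 (2.31 ± 1.06), Eomes (1.68 ± 0.329) and Wnt8a (1.14 ± 0.339) followed. Mixl1 at 0.531 ± 0.218 and Evx1 at 0.316 ± 0.102 were lowest. The ranges of neighbours in this order overlapped over the 4 samples, except those of Lef1 (3.49 to 4.41) and Wnt3 (0.779 to 3.35). All further levels are CPM scaled by TMM library sizes and are compared within a gene.

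The rescue experiment asked which changes of the mutant return when histone binding is restored. T, Sp5 and Fgf8 had lower means in MCM2-2A#2 than in WT#1 and higher means again in MCM2-R#2, but cultures of a line differed so much that the lines overlapped. None of the 10 genes was called in any of the 3 comparisons by the edgeR quasi-likelihood test. A call needed a log2 fold change of more than 0.58 in size together with an adjusted p under 0.01. Of all 17098 genes tested, 2.76% were called in MCM2-2A#2 against WT#1, 1.37% in MCM2-R#2 against MCM2-2A#2 and 0.298% in MCM2-R#2 against WT#1. At an unadjusted p under 0.05, 3 (Fgf8, Sp5, Lef1), 2 (Wnt3, Sp5) and 1 (Lef1) of the 10 passed, and DESeq2 also called none, with 3, 1 and 2 under that limit. The median log2 fold change of the 10 genes was -0.31, 0.36 and 0.17 in these comparisons, beside medians of 0.007, -0.0038 and 0.0081 over all genes.

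T, the T-box factor brachyury that marks the streak, was at 18.0, 2.72, 17.0 and 16.6 CPM in cultures 1 to 4 of WT#1. It was at 1.13, 0.742, 9.01 and 9.07 CPM in MCM2-2A#2. In MCM2-R#2 it was at 12.7, 18.4, 11.4 and 3.86 CPM. WT#1 culture 2 fell into the range of the mutant, and MCM2-2A#2 split into a pair of cultures near 1 CPM and a pair near 9 CPM, so neighbouring lines overlapped. The log2 fold change was -1.41 (SE 0.67, adjusted p = 0.18 by edgeR) in MCM2-2A#2 against WT#1, 1.18 (SE 0.674, adjusted p = 0.31) in MCM2-R#2 against MCM2-2A#2 and -0.23 (SE 0.638, adjusted p = 0.93) in MCM2-R#2 against WT#1.

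Sp5, a zinc finger factor and direct target of beta-catenin, was at 15.3, 3.63, 20.8 and 16.0 CPM in WT#1. The 4 cultures of MCM2-2A#2 held 1.31, 1.19, 8.34 and 8.38 CPM, and those of MCM2-R#2 16.4, 25.1, 13.6 and 5.01 CPM. The low cultures were the ones low for T. Its log2 fold change was -1.52 (SE 0.617, adjusted p = 0.12 by edgeR) in the mutant and 1.61 (SE 0.619, adjusted p = 0.12) in MCM2-R#2 against the mutant. Without the filter on low counts, which enlarged the table to 37358 genes, Sp5 was called in both (adjusted p = 0.0021 and 0.0016, edgeR), and T (-1.43, adjusted p = 0.0094) and Fgf8 (-1.17, adjusted p = 0.0058) were called in the mutant against WT#1.

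Fgf8, the FGF ligand that streak cells need to migrate, was at 4.22, 1.12, 3.05 and 4.08 CPM in WT#1 and at 0.446, 0.705, 1.93 and 2.28 CPM in MCM2-2A#2. MCM2-R#2 lay between, at 2.72, 3.26, 2.01 and 1.32 CPM. WT#1 culture 2 was again inside the range of the mutant. Its log2 fold change was -1.15 in the mutant (SE 0.453, adjusted p = 0.1 by edgeR) and 0.74 in MCM2-R#2 against the mutant (SE 0.465, adjusted p = 0.36). Wnt3 was at 10.3, 2.40, 8.89 and 7.96 CPM in WT#1, 2.85, 3.30, 7.53 and 7.76 CPM in MCM2-2A#2, and 9.10, 12.8, 12.1 and 5.74 CPM in MCM2-R#2. Cultures 1 to 3 of MCM2-R#2 lay above every culture of the mutant, with a log2 fold change of 0.87 (SE 0.397, adjusted p = 0.19 by edgeR).

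Lef1, the HMG-box partner of beta-catenin, had a higher mean in MCM2-2A#2 than in WT#1, as had Eomes, Evx1 and Wnt8a. Lef1 was at 30.7, 35.6, 38.7 and 35.8 CPM in WT#1, 36.0, 41.0, 56.1 and 41.9 CPM in MCM2-2A#2, and 53.0, 53.4, 44.9 and 47.1 CPM in MCM2-R#2. Every culture of MCM2-R#2 was above every culture of WT#1, with a log2 fold change of 0.49 (SE 0.115, adjusted p = 0.083 by edgeR), which did not pass the limit. MCM2-2A#2 lay 0.31 above WT#1 on the log2 scale (SE 0.115, adjusted p = 0.089 by edgeR). Lef1 overlapped in the other 2 rescue comparisons, and the other 9 genes overlapped in all 3. How many of all genes lay apart between these lines was not computed.

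The remaining 5 genes were closer together in the 3 lines, and none was called. Axin2, the scaffold through which the pathway limits itself, averaged 31.7 ± 9.08 CPM (SD, n = 4) in WT#1, 26.5 ± 7.08 in MCM2-2A#2 and 34.8 ± 8.36 in MCM2-R#2. Eomes, a T-box factor of mesoderm and endoderm, ranged from 4.93 to 7.78, 6.30 to 9.95 and 5.29 to 12.6 CPM. Wnt8a, a ligand of the posterior epiblast, ranged from 1.16 to 2.53, 1.44 to 2.69 and 1.01 to 3.44 CPM. The homeobox genes Mixl1 (0.508 to 1.65, 0.481 to 1.44 and 0.487 to 1.77 CPM) and Evx1 (0.508 to 1.21, 0.482 to 1.93 and 0.870 to 2.08 CPM) overlapped in all 3 lines.

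Within a line most of the genes were low in the same cultures. WT#1 culture 2 was the lowest of its line for 9 of the 10 genes, all but Lef1. Cultures 1 and 2 of MCM2-2A#2 were its lowest pair for 10 of 10. Culture 4 of MCM2-R#2 was lowest for 7 of 10, not for Evx1, Axin2 and Lef1. These cultures were picked after their values were seen, and the share of all genes lowest in them was not computed. The sum of 8 fibroblast markers was also lowest in WT#1 culture 2, at 185 CPM against 295 to 313 in the other 3, while the sum of 10 endoderm markers was 153 there against 155 to 183. In the other lines the markers took other courses. The fibroblast sum was lowest in cultures 1 and 2 of MCM2-R#2 (210 and 252 CPM), where T was high, and was 394 CPM in culture 4, where T was low. Vim made up most of the fibroblast sum, at 139 to 221 CPM in WT#1, 140 to 171 in MCM2-2A#2 and 163 to 307 in MCM2-R#2. In MCM2-2A#2 the endoderm sum was higher in the low cultures 1 and 2 (384 and 363 CPM) than in cultures 3 and 4 (314 and 297 CPM). Across lines the endoderm sum was 297 to 384 CPM in MCM2-2A#2, 153 to 183 in WT#1 and 133 to 190 in MCM2-R#2. The median sum of 7 trophectoderm markers was 272 CPM in WT#1, 171 in MCM2-2A#2 and 255 in MCM2-R#2. In MCM2-R#2 the fibroblast marker Lum was at 0 in every culture, and no other marker of these lists was at 0 in every culture of a line. The part of these markers in the results was not tested.

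The cultures were sequenced in runs that the labels number 1 and 2, and the runs were unevenly spread over the lines. The 2 cultures sequenced in both had like levels in each, with T at 17.5 and 16.6 CPM in WT#1 culture 3 and at 9.29 and 8.81 CPM in MCM2-2A#2 culture 4. In MCM2-2A#2 the low cultures 1 and 2 were from run 1, culture 3 from run 2 and culture 4 from both. All 4 cultures of MCM2-R#2 came from run 1. With the run set as a covariate T changed by -1.79 in the mutant (adjusted p = 0.073 by edgeR) and by 2.42 in MCM2-R#2 against the mutant (adjusted p = 0.06), and Sp5 by -1.78 (adjusted p = 0.042) and 2.81 (adjusted p = 0.018). T in MCM2-R#2 against WT#1 then turned to 0.63 (adjusted p = 0.73). Within run 1, T was at 0.742, 1.13 and 9.29 CPM in MCM2-2A#2, 18.0, 2.72 and 17.5 CPM in WT#1 and 3.86 to 18.4 CPM in MCM2-R#2, so that the lines overlapped within the run as well.

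**Figure D1:**
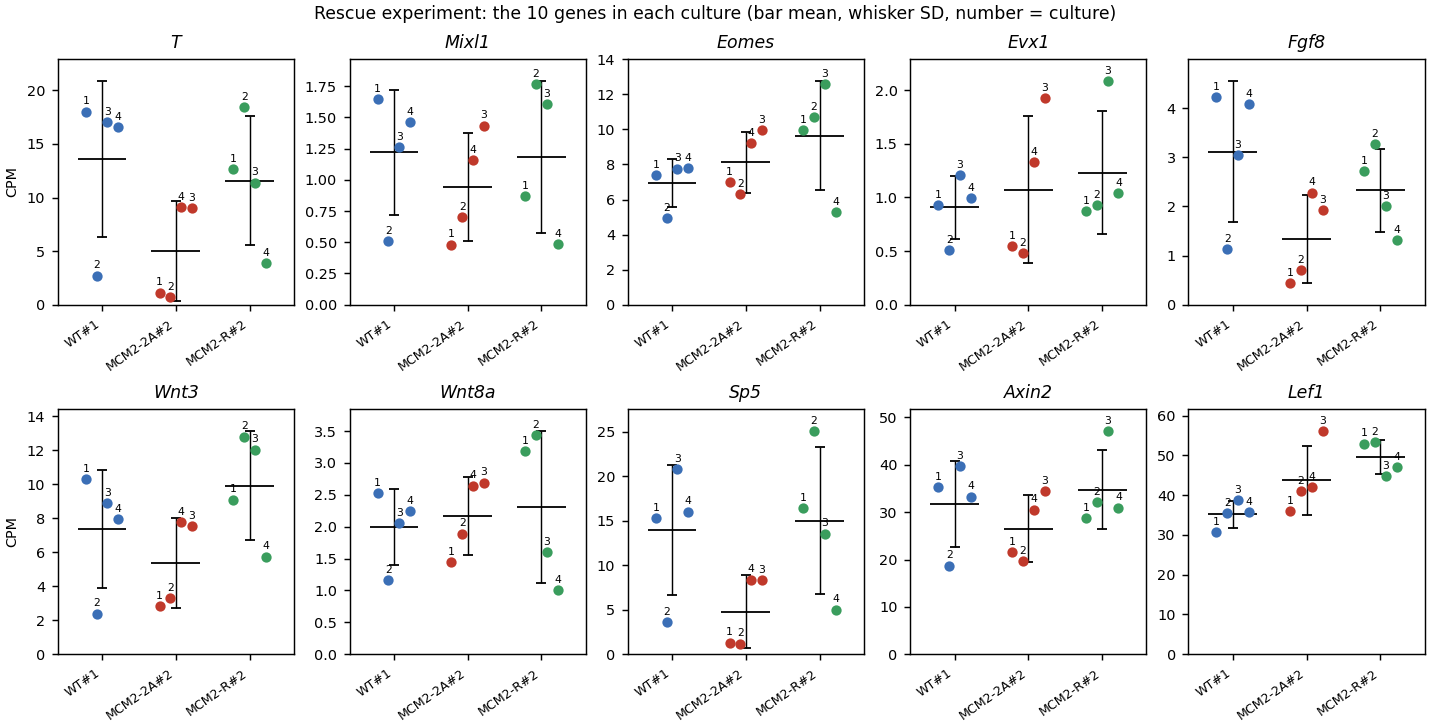
Level of each of the 10 genes (CPM, linear axis from 0) in the 4 cultures of WT#1, MCM2-2A#2 and MCM2-R#2. Points are cultures with their number, bars the mean and whiskers the SD. T in WT#1 culture 2 (2.72 CPM) lies below both MCM2-2A#2 cultures near 9 CPM.

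Other genes of the pathway were counted over lists by role. In MCM2-2A#2 against WT#1, 0 of 14 tested further WNT ligands were called (median log2 fold change 0.13), and 0 of 18 genes of the beta-catenin core and TCF factors (median -0.08). Of 20 receptors and secretion factors 2 were higher, the R-spondin receptors Lgr5 (1.57, SE 0.327, adjusted p = 0.0063 by edgeR) and Lgr6 (1.04, SE 0.201), and 2 were lower, Ror1 (-0.99) and Fzd2 (-0.89). Of 17 secreted and membrane regulators 1 was higher, the inhibitor Dkk1 (1.58, SE 0.243, adjusted p = 0.00086 by edgeR). In MCM2-R#2 against the mutant Dkk1 was lower (-1.53, SE 0.247), and Ror1 (1.30) and Fzd2 (0.94) were higher.

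Of 23 tested other streak and early mesoderm genes, 1 was higher in the mutant, the receptor gene Pdgfra (1.57, SE 0.211), and 1 was lower, Fgf17 (-0.72, SE 0.0886). Pdgfra also stands in the list of endoderm markers, of which 9 of 10 were higher in MCM2-2A#2 (median log2 fold change 1.45) and 9 of 10 lower in MCM2-R#2 against it (median -1.57). None of the 9 formative and primed epiblast genes and none of the 5 fibroblast genes tested was called in the mutant (medians 0.0035 and -0.52). Of 12 naive pluripotency genes Tbx3 was higher (0.83) and Dppa3 lower (-0.999), and 1 of 5 neural genes, Map2 (-0.66), and 1 of 6 trophectoderm genes, Tfap2c (-0.63), were lower.

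The clone experiment asked whether a difference between genotypes holds over many clones. T, Sp5, Wnt3 and Fgf8 had lower means in MCM2-2A clones, but clones of the same genotype differed far more than the genotypes did. None of the 10 genes was called in MCM2-2A clones against WT clones, where 0.679% of 23265 genes were, 1 gene (Sp5) had an unadjusted p under 0.05 and DESeq2 called none, with 3 under that limit. Of the 10, 8 were below 0, with a median log2 fold change of -0.36 beside -0.0016 over all genes. The 2 genotypes overlapped for all 10. The unit of the fit was the clone in a batch, 8 units of WT and 9 of MCM2-2A.

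In the 8 WT units T ran from 0.252 CPM in WT#6 over a median of 4.33 to 29.7 CPM in WT#1 of August. In the 9 MCM2-2A units it ran from 0.188 CPM in MCM2-2A#8 over 3.87 to 20.2 CPM in MCM2-2A#1. The highest WT clone held 118 times the T of the lowest, and in August alone the MCM2-2A clones spanned 27.3-fold. Against that spread the log2 difference between genotypes was -1.84 (SE 0.957, adjusted p = 0.3 by edgeR).

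Set in order by the mean of their libraries, T was highest in WT#1 of August (29.4 ± 6.01 CPM, SD, n = 2), WT#2 (27.9 ± 13.3, n = 2) and MCM2-2A#1 in January (20.2 ± 0.817, n = 3) and March (20.0 ± 1.28, n = 3). These 4 overlapped as neighbours and stood apart from WT#1 of March at 12.1 ± 3.58 CPM (n = 3). From there down to MCM2-2A#4 at 0.883 ± 0.275 CPM (n = 2) each clone overlapped with the next. WT#6 (0.253 ± 0.0732, n = 2) and MCM2-2A#8 (0.189 ± 0.0139, n = 2) stood below and apart. The top and the bottom of this order each held both genotypes.

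**Figure D2:**
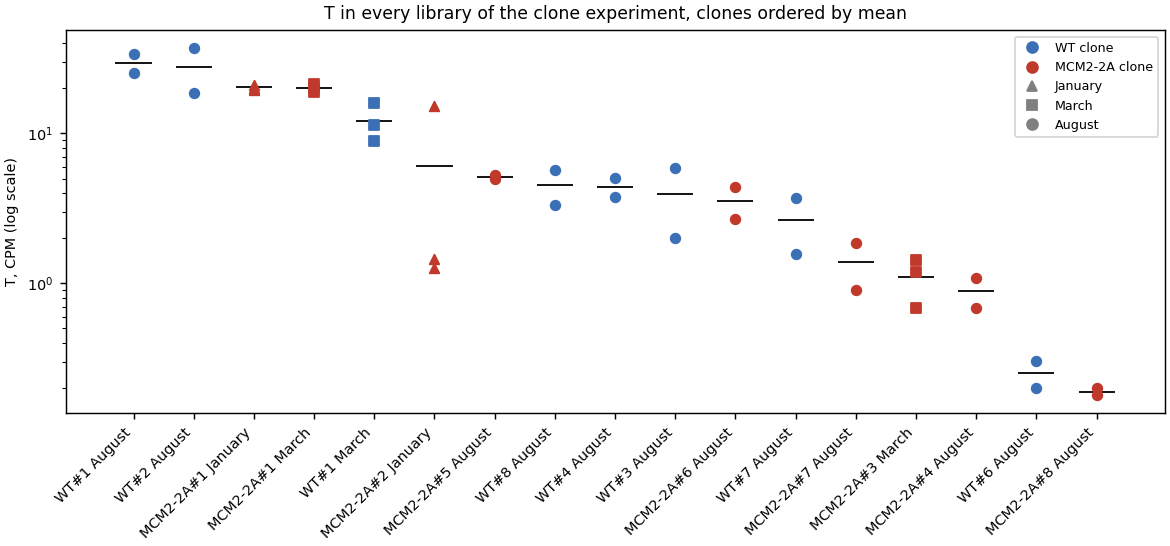
T (CPM, log axis) in every library of the clone experiment, with clones in order of their mean (bars). Colour gives the genotype and shape the batch. WT and MCM2-2A clones mix along the order, from 29.4 to 0.189 CPM, and 1 January library of MCM2-2A#2 lies far above the others of its clone.

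MCM2-2A#2 was itself divided in the January batch. Library 1 held 15.3 CPM of T against 1.45 and 1.26 CPM in libraries 2 and 3, and 12.2 CPM of Sp5 against 1.29 and 1.23. It was the highest of the 3 for 9 of the 10 genes, with Wnt3 at 10.8 CPM against 2.58 and 2.47. Lef1 went the other way, at 32.1 CPM against 51.6 and 49.1. How many of all genes were highest in library 1 was not computed. Without this library, a choice made after its values were seen, no gene was called and T was at -1.84 (adjusted p = 0.34 by edgeR).

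Sp5 ran from 2.66 to 22.3 CPM over the WT units (median 3.40) and from 0.733 to 18.9 over the MCM2-2A units (median 2.43). Its log2 difference was -1.75 (SE 0.723, adjusted p = 0.18 by edgeR). Wnt3 ran from 0.356 to 15.8 (median 3.51) and from 0.375 to 13.2 CPM (median 2.24), and Fgf8 from 0.089 to 2.64 (median 0.545) and from 0.0853 to 1.80 CPM (median 0.398). Their log2 differences were -1.45 (SE 0.822) and -1.28 (SE 0.651), with adjusted p = 0.34 and 0.29 by edgeR. For Wnt3 and Fgf8 the lowest clones of both genotypes met at nearly the same level, while for Sp5 5 MCM2-2A units lay below every WT unit.

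The other 6 genes had smaller differences between genotypes. Axin2 ran from 10.1 to 30.1 CPM over the WT units and from 11.4 to 28.5 over the MCM2-2A units, with a log2 difference of -0.04 (SE 0.268). Lef1 ran from 4.96 to 23.7 and from 5.90 to 41.7 CPM (log2 difference -0.06, SE 0.324). Eomes (-0.17, SE 0.356), Mixl1 (-0.56, SE 0.451), Evx1 (0.25, SE 0.249) and Wnt8a (0.0096, SE 0.559) were also not called. Wnt8a spanned 20.4-fold over the WT units and Evx1 2.02-fold over the MCM2-2A units. For Wnt8a the sign turned without the filter, with DESeq2 and in August alone.

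Batches held unequal sets of clones. Of January only MCM2-2A clones were analysed, and March held WT#1 as its single WT unit against MCM2-2A#1 and MCM2-2A#3. Within August T was at -2.16 (adjusted p = 0.27 by edgeR) and Sp5 at -2.06 (adjusted p = 0.13), and within March they were at -0.20 and -0.15, where an arm of 1 unit gave no call for any gene and says nothing on either. WT#1, the line used as the control of the other 2 experiments, was highest of the 7 August WT clones for 8 of the 10 genes and among the top 2 for 10 of 10. It held 6.88 times the median of those clones for T, 7.02 times for Sp5, 5.95 times for Wnt3 and 1.14 times for Lef1. How often WT#1 ranked this high over all genes was not computed. Without WT#1 the genotype difference of Fgf8 went from -1.28 to -0.90 and that of T from -1.84 to -1.61. Without both WT#1 and MCM2-2A#2 the signs of Eomes (0.028) and Axin2 (0.11) turned.

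Clones of 1 genotype were then compared with each other, with the 2 August libraries of a clone as replicates. Among the 7 WT clones all 10 genes differed (adjusted p below 0.01 in the F test of edgeR), where 33.3% of all 20587 genes did. Among the 5 MCM2-2A clones 7 of 10 differed, where 17.4% of all genes did, and Mixl1 (adjusted p = 0.12), Evx1 (0.25) and Fgf8 (0.039) did not pass. Fgf8 passed with DESeq2 (adjusted p = 0.0026), and Eomes was lost without either library of MCM2-2A#5 (adjusted p = 0.017 and 0.019 by edgeR) and Sp5 without its library 2 (adjusted p = 0.019). The adjusted p among WT clones was 5e-08 for T, 5.4e-08 for Sp5, 4.5e-08 for Wnt3 and 8.6e-09 for Axin2. Among MCM2-2A clones it was smallest for Lef1, at 1.3e-08. The second August library of a clone was higher for T in 11 of 12 clones, with a median ratio of 1.6, and for Sp5 in 11 of 12, but for Lef1 in 1 of 12.

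**Figure D3:**
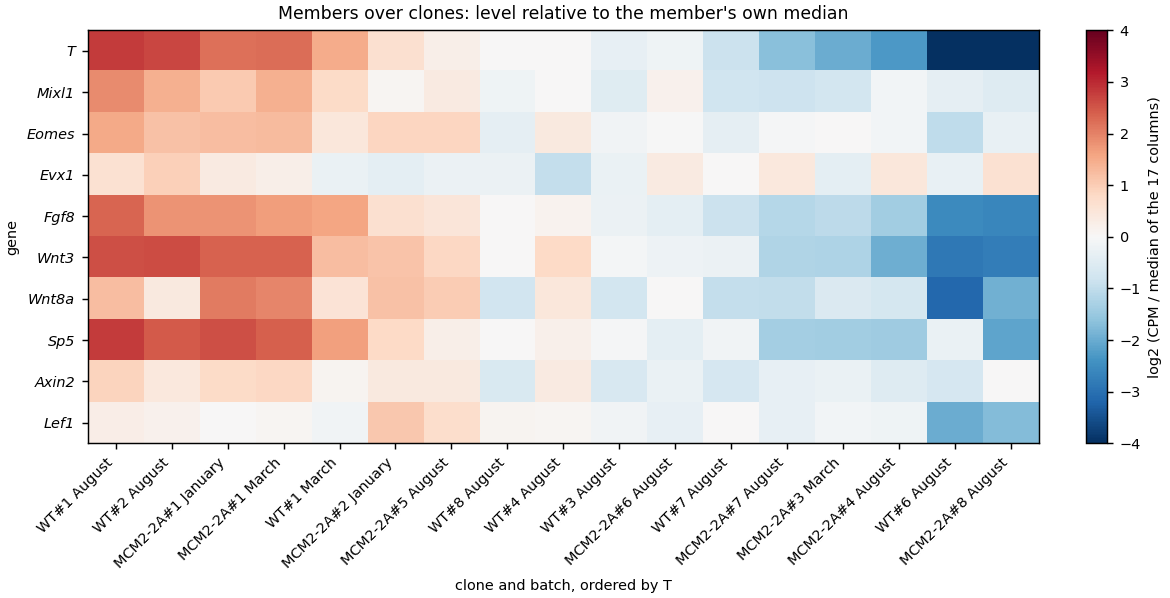
Level of each gene over the 17 clone-by-batch units, as log2 of CPM over the median of that gene (red above, blue below, scale from -4 to 4), ordered by T. T, Fgf8, Wnt3 and Sp5 run from red to blue in nearly the same order, Evx1 does not, and Lef1 is lowest in WT#6 and MCM2-2A#8.

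The genes varied together over the 12 August clones of both genotypes. Of the 45 pairs, 32 were correlated by Pearson r and 33 by Spearman rho at a Benjamini-Hochberg adjusted permutation p under 0.05. The median r was 0.78. Pairs of other genes were not tested in this way, so the share over all pairs of genes is not known. T and Fgf8 had r = 0.99 and rho = 0.99, and T and Wnt3 had r = 0.98 and rho = 0.96, with an adjusted permutation p of 0.00015 for both r. Their raw permutation p of 1e-05 is the smallest that the resampling can give. T and Sp5 had r = 0.87 and rho = 0.94 (adjusted permutation p = 0.0023 for r), and r = 0.98 without MCM2-2A#8 and WT#6, the clones farthest from the median of T. T and Lef1 had r = 0.83 and rho = 0.92 (adjusted permutation p = 0.0036 for r), and r = 0.53 without those clones. T and Axin2 had r = 0.60 and rho = 0.62, which did not pass (adjusted permutation p = 0.058 for r).

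Evx1 stood outside this pattern. None of its 9 pairs passed over the 12 clones, with a median r of 0.15, against 32 of the 36 pairs without it, with a median r of 0.83. WT#1 and WT#2 lie far above the other clones in T, and without them 19 of the 45 pairs passed, a check added after the data were seen. One of these was Evx1 with Sp5, at r = -0.85 (adjusted permutation p = 0.0054), while within the 7 WT clones these genes had r = 0.82 and Evx1 with T r = 0.64. T with Fgf8 (r = 0.99) and with Wnt3 (r = 0.97) were nearly the same without them, while T with Mixl1 went from 0.76 to 0.43. Within the 7 WT clones T had r = 0.99 with Fgf8 and 0.84 with Sp5. Over all 17 units with batch means removed, 33 pairs passed. WT#1 and MCM2-2A#1 enter these units more than once, so the units are not independent. January held only MCM2-2A#1 and MCM2-2A#2, whose values mirror each other once the batch mean is removed. This count is therefore no separate check.

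By the same measure over the 17 units, the genes most like T among 23264 were Rgs17 (r = 0.990), Pkdcc (0.987), Ghr (0.986), Wnt3 (0.986) and Piezo2 (0.985). Their r with T over the 12 rescue cultures was 0.92, 0.97, 0.95, 0.90 and 0.95, and over the 12 POLE4 libraries 0.87, 0.93, 0.96, 0.92 and 0.97. At lower limits, 361 of the 23264 genes reached an r of at least 0.9 and 1143 an r of at least 0.8. Fgf8 came in place 11 and Sp5 in place 350, while Axin2 came in place 2399 and Evx1 in place 7358. These correlations describe libraries that share batch and culture and carry no p.

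Markers of other cell types also differed between clones. The fibroblast sum ran from 87.0 to 271 CPM over WT units and from 127 to 275 over MCM2-2A units, with WT#1 of August (271), WT#4 (268), MCM2-2A#5 (275) and MCM2-2A#1 (270 and 275) at the top. T was at 4.34 CPM in WT#4 and 5.11 CPM in MCM2-2A#5, near the medians of 4.33 over WT units and 3.87 over MCM2-2A units. The endoderm sum was highest in MCM2-2A#8 (386 CPM), and in WT#6 (252 CPM) it was the highest of the WT clones, and those were the clones lowest in T. The sum of 12 naive pluripotency genes also stood apart there, at 3160 CPM in MCM2-2A#8 and 3060 in WT#6 against 1510 to 2270 in the other units, and the formative and primed sum was lowest in MCM2-2A#8 (779 CPM). No fibroblast, endoderm or core pluripotency marker was at 0 in all units of either genotype, and their part in the result was not tested. None of the 15 further WNT ligands, 20 receptors and secretion factors, 21 regulators and 18 core genes tested was called between genotypes. Of 27 other streak and early mesoderm genes 1 was higher in MCM2-2A clones, Pdgfra (1.20, SE 0.2, adjusted p = 0.0038 by edgeR), which was also 1 of 3 endoderm markers called higher among 10.

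The POLE4 experiment asked what happens when the other arm of histone recycling is lost. Against WT#1, 7 of the 10 genes were called lower in the mean of the 3 knockout clones. Of all 16864 genes 3.53% were called lower and 5.74% in either direction. In the clone experiment WT#1 held 6.88 times the median T of the August WT clones, which ran from 0.252 to 29.7 CPM. A loss of POLE4 and a difference between clones cannot be told apart here. T (log2 fold change -2.84, SE 0.138, adjusted p = 2e-09 by edgeR) and Fgf8 (-2.80, SE 0.261) fell most, then Sp5 (-2.40, SE 0.173), Mixl1 (-1.75, SE 0.241), Wnt3 (-1.43, SE 0.112), Axin2 (-0.95, SE 0.0772) and Lef1 (-0.75, SE 0.0869). Eomes was at -0.58 with an adjusted p of 0.0045 (edgeR), just short of the size limit, which it passed without the filter and on leaving out any of 7 libraries, and Wnt8a at -0.80 with an adjusted p of 0.016, and Evx1 at 0.22 with 0.53. The median of the 10 was -1.19, beside -0.0073 over all genes. T, Mixl1, Fgf8 and Sp5 were lower in all 9 knockout libraries than in any WT#1 library. The share of all tested genes for which this held was not computed.

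T was at 16.9, 14.8 and 18.5 CPM in WT#1. It was at 0.431, 0.398 and 0.348 CPM in POLE4-KO#1, at 4.35, 7.74 and 5.83 CPM in POLE4-KO#2 and at 5.26, 5.84 and 5.00 CPM in POLE4-KO#3. No knockout library came near WT#1, and POLE4-KO#1 stood a further step below the other two. Its 3 libraries held 8 to 9 counts of T each, and its summed level was 2.34% of WT#1 (95% interval 1.52 to 3.45% by an exact binomial method, which covers counting error alone). The levels of POLE4-KO#2 and POLE4-KO#3 were 36.5% (32.5 to 40.9%) and 32.3% (28.5 to 36.4%).

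Sp5 was at 22.8, 13.5 and 16.7 CPM in WT#1, 2.32, 0.884 and 1.86 in POLE4-KO#1, 3.10, 2.50 and 2.96 in POLE4-KO#2 and 9.74, 7.35 and 6.89 in POLE4-KO#3. Fgf8 was at 3.23, 2.43 and 3.52 CPM in WT#1, 0.162, 0.398 and 0.0387 in POLE4-KO#1, 0.484, 0.508 and 0.348 in POLE4-KO#2 and 1.21, 0.867 and 0.778 in POLE4-KO#3. The mean of both genes was lowest in POLE4-KO#1, then in POLE4-KO#2, and every knockout library was below WT#1. Fgf8 had 1 to 9 counts a library in POLE4-KO#1, a summed level of 6.45% of WT#1 (95% interval 3.38 to 11.3%). Mixl1 was also sparse, at 4 to 6 counts there and 31 to 55 in WT#1, which makes 13% of WT#1 (7.2 to 21.9%).

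For Wnt3 and Axin2 the clones parted. Wnt3 was at 10.0, 9.64 and 10.4 CPM in WT#1, 1.13, 1.28 and 1.35 in POLE4-KO#1 and 3.87, 4.91 and 4.00 in POLE4-KO#2, but at 10.9, 9.95 and 7.93 in POLE4-KO#3. Axin2 was at 29.6, 30.5 and 32.2 CPM in WT#1, 7.17, 9.46 and 8.70 in POLE4-KO#1 and 14.3, 16.2 and 16.0 in POLE4-KO#2, but at 29.0, 30.4 and 33.1 in POLE4-KO#3. In POLE4-KO#3 both overlapped with WT#1, at log2 fold changes of -0.07 (SE 0.134) and 0.0050 (SE 0.0962). Lef1 took another course, at 25.8 to 26.9 CPM in WT#1, 9.37 to 10.3 in POLE4-KO#1, 19.6 to 27.5 in POLE4-KO#2 and 16.2 to 18.7 in POLE4-KO#3, so that it was called in POLE4-KO#1 and POLE4-KO#3 and not in POLE4-KO#2.

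Eomes was at 6.56 to 8.76 CPM in WT#1, 2.47 to 3.71 in POLE4-KO#1, 4.50 to 5.37 in POLE4-KO#2 and 7.56 to 8.49 in POLE4-KO#3. Wnt8a was at 1.55 to 1.81, 0.108 to 0.398, 1.26 to 1.48 and 2.11 to 3.09 CPM in the same order. In POLE4-KO#3 each library of Wnt8a was above WT#1, at a log2 fold change of 0.68 (SE 0.237, adjusted p = 0.069 by edgeR) that was not called. Evx1 ranged from 1.74 to 2.09, 1.41 to 3.29, 2.45 to 3.63 and 1.45 to 2.36 CPM. It was the one gene not called in any clone, and in POLE4-KO#2 its libraries lay above WT#1 (log2 fold change 0.57, SE 0.275, adjusted p = 0.13 by edgeR). How many of all genes lay above WT#1 in every library of a clone was not computed.

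**Figure D4:**
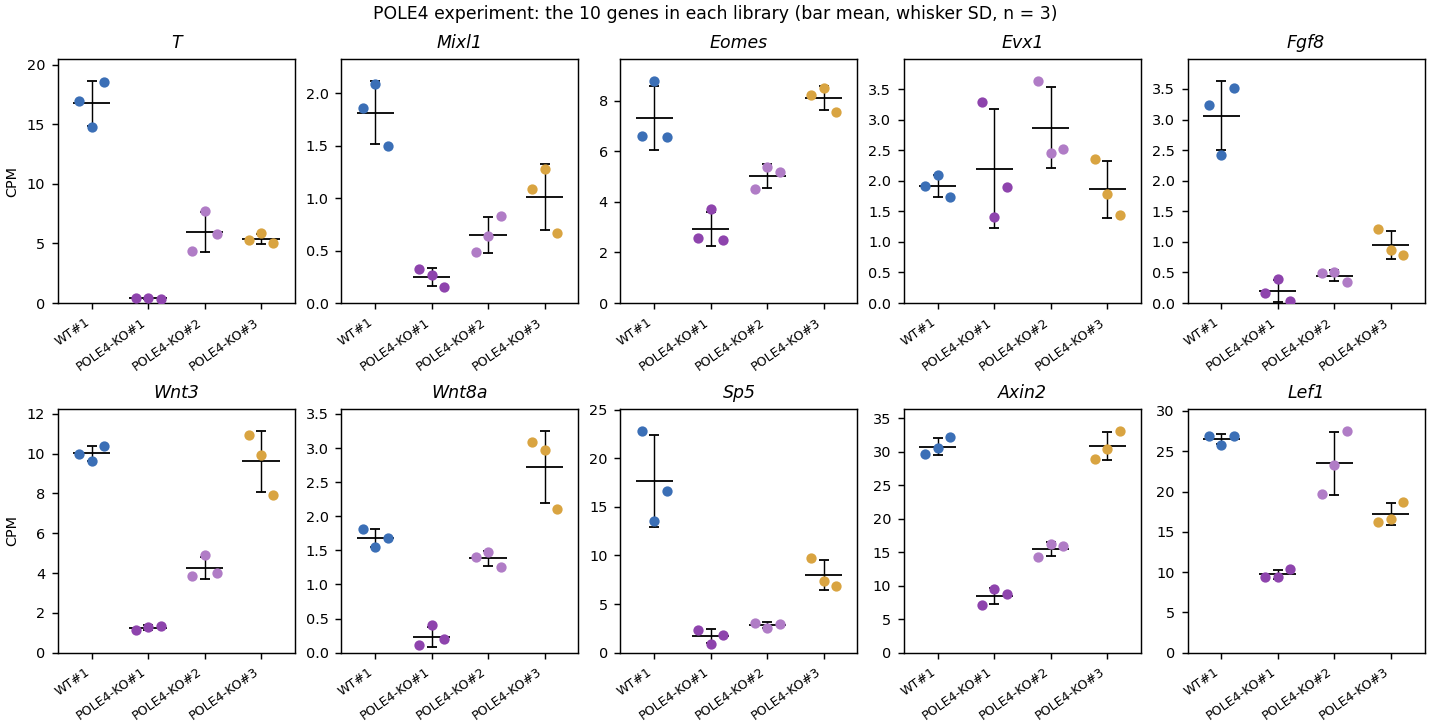
Level of each of the 10 genes (CPM, linear axis from 0) in the 3 libraries of WT#1 and of each POLE4-KO clone. Points are libraries, bars the mean and whiskers the SD. T is under 0.5 CPM in POLE4-KO#1, Wnt3 and Axin2 in POLE4-KO#3 lie at the level of WT#1, and Evx1 overlaps or exceeds it.

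By clone, 9 of the 10 genes were lower in POLE4-KO#1, where 7.81% of all genes were lower and 11.5% called in either direction (median -2.84 beside 0.008 over all genes). In POLE4-KO#2 6 were lower, where 6.32% of all genes were lower and 11.3% called (median -1.11 beside -8.2e-05), namely T, Mixl1, Fgf8, Wnt3, Sp5 and Axin2. In POLE4-KO#3 4 were lower, where 0.427% were lower and 2.98% called (median -0.35 beside -4e-04), namely T, Fgf8, Sp5 and Lef1. Mixl1 in POLE4-KO#2 was lost without library 7 of WT#1 (-1.36, adjusted p = 0.01 by edgeR). The count for POLE4-KO#3 depended on single libraries: it was 1 without its library 2, 2 without its library 3 and 2 without library 6 of WT#1. The 3 clones share the WT#1 libraries, so their values are given side by side.

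The difference between knockout clones was tested directly. In the F test of edgeR over the 3 clones 9 of the 10 genes differed, where 31.2% of all genes did. The adjusted p was 4.1e-09 for Axin2, 6.6e-09 for Wnt3 and 1.7e-08 for T. Evx1 did not pass (adjusted p = 0.15). Fgf8 did not pass without library 1 or 2 of POLE4-KO#3 or library 1 of POLE4-KO#1 (adjusted p = 0.01 to 0.017 by edgeR), nor Mixl1 without library 3 of POLE4-KO#1 (0.014). Pole4 itself was at 2.87 to 3.75 CPM in POLE4-KO#1, 2.97 to 4.85 in POLE4-KO#3 and 6.43 to 8.35 in POLE4-KO#2.

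Markers of other cell types moved with the clones. The sum of 8 fibroblast markers was 292 to 344 CPM in WT#1, 84.3 to 100 in POLE4-KO#1, 129 to 163 in POLE4-KO#2 and 271 to 343 in POLE4-KO#3. Vim made up most of it, at 213 to 264, 78.8 to 95.1, 120 to 152 and 197 to 254 CPM in the same order. The list members Postn, Dcn and Lum reached at most 0.456 CPM. Col1a1, which encodes a collagen chain, was at 59.3 to 64.0, 0.884 to 1.28, 3.13 to 4.26 and 53.2 to 65.8 CPM. The sum of 7 trophectoderm markers was 311 to 314 CPM in WT#1, 73.7 to 75.5 in POLE4-KO#1, 152 to 168 in POLE4-KO#2 and 315 to 394 in POLE4-KO#3. Krt8 and Krt18 made up most of it in WT#1, and members went opposite ways: Gata3 and Hand1 were higher in POLE4-KO#2 (2.17 and 0.77) and in POLE4-KO#3, where Hand1 reached 2.20, and Hand1 was lower in POLE4-KO#1 (-2.67). Of the fibroblast list 5 of 5 tested genes were lower in POLE4-KO#1, 4 in POLE4-KO#2 and 0 in POLE4-KO#3, where T, Fgf8 and Sp5 were still lower. Endoderm sums were 130 to 175 CPM in WT#1, 188 to 300 in POLE4-KO#1, 245 to 306 in POLE4-KO#2 and 208 to 219 in POLE4-KO#3. In POLE4-KO#1 Lama1 alone gave 161 to 270 CPM of it, and of 8 tested endoderm genes 2 were higher and 3 lower there, namely Col4a1 (-1.47), Cubn (-1.18) and Dab2 (-1.10), with a list median of -0.56. Of these lists the fibroblast marker Lum was at 0 in every library of POLE4-KO#1. Their part in the results was not tested. Core pluripotency genes were not called in any knockout clone (0 of 5). Of 12 naive pluripotency genes Klf5 (0.94) and Nr0b1 (0.62) were higher in POLE4-KO#1, the clone lowest in T, and Dppa3 was lower in POLE4-KO#3 (-0.81). The naive sum was 1920 to 2490 CPM in WT#1, 2450 to 3080 in POLE4-KO#1, 2110 to 2710 in POLE4-KO#2 and 1790 to 2060 in POLE4-KO#3.

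Among other genes of the WNT pathway the share called lower in POLE4-KO#1 differed by role, beside 7.81% of all genes lower and 11.5% called. Of 12 tested further ligands 5 were lower, among them Wnt4 (-3.23, SE 0.261), Wnt5b (-2.69, SE 0.245) and Wnt7a (-1.78, SE 0.386), and Wnt9b was at 0 counts in all 3 libraries. Of 20 receptors and secretion factors 7 were lower, led by Wls, the carrier that WNT proteins need to leave the cell (-2.92, SE 0.117, adjusted p = 8.5e-11 by edgeR), and by the target and receptor gene Lgr5 (-2.10, SE 0.523). Among 16 secreted and membrane regulators Kremen2 (-1.98), Rspo3 (-1.92) and Rnf43 (-1.76) were lower, and 2 were higher, one of them Notum (1.18, SE 0.165), an enzyme that inactivates WNT. Of 18 genes of the beta-catenin core and TCF factors 2 were lower, the co-activators Bcl9l (-0.86) and Bcl9 (-0.63). The medians of these 4 lists were -1.09, -0.44, -0.52 and -0.06 on the log2 scale.

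In POLE4-KO#2 the counts were 3 of 12 ligands, 5 of 20 receptors and secretion factors, 2 of 16 regulators and 1 of 18 core genes, each lower. Wls was at -1.58 (SE 0.105), Fzd3 at -1.13 (SE 0.174) and Rspo3 at -2.22 (SE 0.448). In POLE4-KO#3 none of the 20 receptors and secretion factors and none of the 18 core genes was called, while Wnt7b (1.11, SE 0.105) and Kremen1 (0.59, SE 0.0911) were higher.

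Of 21 tested other streak and early mesoderm genes, 7 were lower and 2 higher in POLE4-KO#1. The lower ones were led by Nkx1-2, a homeobox gene of caudal progenitors (-5.20, SE 0.416), and the caudal genes Cdx1 (-3.42, SE 0.34) and Cdx2 (-2.82, SE 0.227). Cdx2 also stands in the trophectoderm list. In POLE4-KO#2 5 were lower, led by the Nodal inhibitor Lefty2 (-2.97, SE 0.219), and 1 was higher, Pdgfra (0.99, SE 0.244). In POLE4-KO#3 1 was lower, Fgf17 (-0.95, SE 0.142). Over the list as a whole the medians were near 0, at -0.18, -0.05 and 0.11. Of 9 formative and primed epiblast genes 5 were lower in POLE4-KO#1, among them Pou3f1 (-1.42, SE 0.106) and Dnmt3a (-1.32, SE 0.0973), 2 in POLE4-KO#2 and 0 in POLE4-KO#3.

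**Figure D5:**
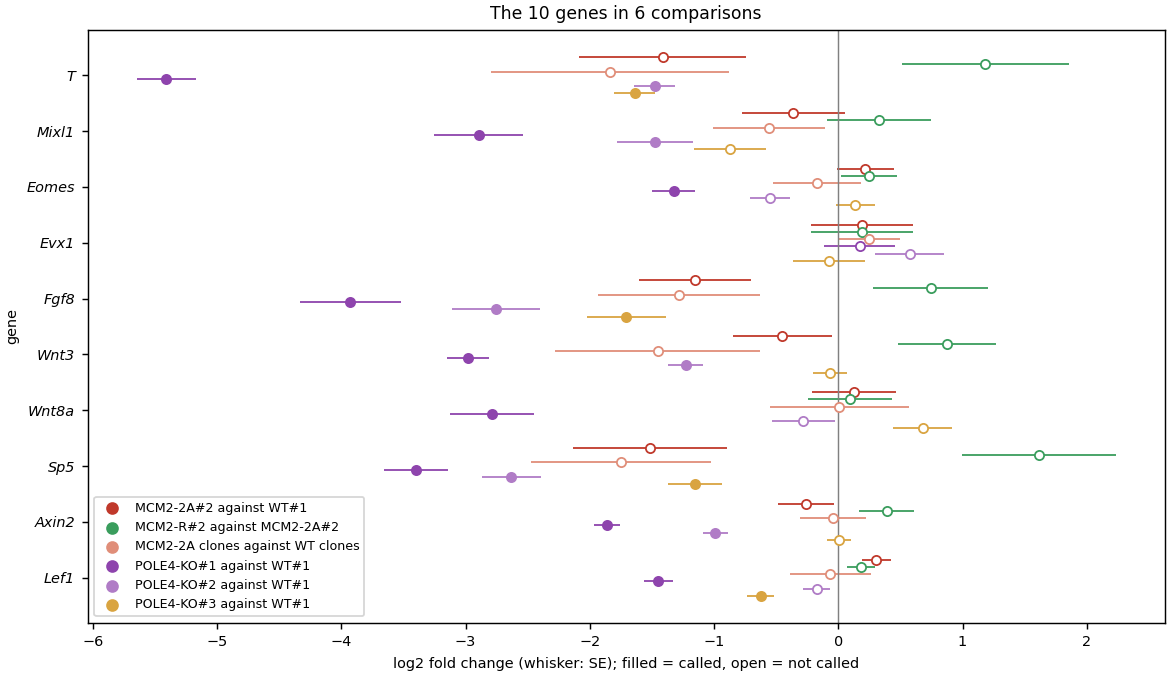
Log2 fold change of each gene in 6 comparisons, with whiskers of 1 SE, filled where called and open where not. Every filled point is from a POLE4-KO clone, and T runs from -5.41 in POLE4-KO#1 to -1.84 in MCM2-2A clones and -1.41 in MCM2-2A#2. The POLE4-KO clones share 3 WT#1 libraries, and both MCM2-2A#2 comparisons share its 4 cultures.

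Side by side, T was at -5.41 (SE 0.239) in POLE4-KO#1, -1.48 (SE 0.163) in POLE4-KO#2, -1.64 (SE 0.166) in POLE4-KO#3, -1.84 (SE 0.957) in MCM2-2A clones and -1.41 (SE 0.67) in MCM2-2A#2. T passed the limits in the POLE4-KO clones and not in the MCM2-2A comparisons, and the difference between experiments was not tested, since the tables were normalised separately. Genes nearby showed no common shift: over all comparisons the median log2 fold change of tested genes within 5 Mb of each gene lay between -0.0788 and 0.149.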

How the data were processed

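Per the labels and the methods of the study, RNA was depleted of ribosomal RNA and made into strand-specific libraries. One table per experiment was deposited by the authors, holding raw counts for genes and for repeat subfamilies. The processing notes of the submitters name Trimmomatic 0.39, STAR 2.7.1a, featureCounts and mm10, and GENCODE genes were counted. Of 68 columns, 65 were used and 3 tied to no sample given here. Here technical runs of a rescue culture were summed, and clone libraries were summed per clone and batch except in tests among clones. Counts were fitted with edgeR 4.0.16 (R 4.3.3) by the quasi-likelihood test, 2-sided, with TMM factors from gene rows, filterByExpr (min.count 10, min.total.count 15) and Benjamini-Hochberg adjustment over all genes tested. The rescue fit held all 12 cultures, the POLE4 fit all 12 libraries, the clone fit batch as a covariate. The tests recovered known changes in simulated counts of well-covered genes, drawn at the common dispersion. The simulation does not show what the tests miss for genes with few counts or with cultures as uneven as those of T. Correlations of log2 CPM used permutation tests with 1e+05 resamples (scipy 1.17.1). DESeq2 1.42.0, RLE scaling, no filter, single runs, run set, replicate blocks, single batches and leaving out samples were tried as alternatives. Variation between samples, the square root of the common dispersion, was 10.4% for rescue cultures, 10.3% for POLE4 libraries and 24% for clones. Gene names came from the reference table for 55154 of 55335 rows.

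The 10 genes, the other lists and the rules for naming genes were chosen with earlier results of these data known. All 10 genes are named in each comparison. From the other lists a gene is named where called, at most 4 per list and comparison by absolute log2 fold change. The genes most like T are the 5 with the highest r of log2(CPM + 0.1). The cell type marker lists were naive and core pluripotency, formative epiblast, endoderm, fibroblast, neural and trophectoderm. Libraries of the POLE4-KO clones with the same number deviated together in 9 of 9 pairs (correlation of deviations over 0.1), against 0 of 18 pairs with other numbers.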

Additional observations from a re-analysis of the deposited data

Results flagged for a closer look

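Of 50 groups of 4 to 10 samples tested for a sample far from the rest (Dixon's test), 5 had one, where chance gives about 1 in 20. In WT#1 of the rescue experiment culture 2 was far below the others for T (2.72 CPM) and for Eomes (4.93 CPM). In MCM2-R#2 culture 3 was far above the others for Evx1 (2.08 CPM). Among August clones MCM2-2A#5 was far above its genotype for Eomes (6.3 CPM), and WT#6 far below for Lef1 (4.96 CPM).

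The 3 POLE4-KO clones were set against the same WT#1 libraries. By the edgeR F test over clones 9 of the 10 genes differed between them, where 31.2% of all 16864 genes did. The genotype and the clone cannot be told apart in that test. The adjusted p was 1.7e-08 for T, 0.0019 for Mixl1, 1.7e-05 for Eomes, 0.0036 for Fgf8, 6.6e-09 for Wnt3, 1.5e-06 for Wnt8a, 1.1e-05 for Sp5, 4.1e-09 for Axin2 and 1.1e-06 for Lef1. For each of these 9 genes the level in POLE4-KO#1 was the lowest of the 3 clones.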

How the results depend on the processing

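Of the values and counts of the 10 genes recomputed under other settings, 547 kept their direction and their side of the limit, 14 turned, 9 gained a call and 4 counts moved. Without the filter 3 of the 10 genes were called in MCM2-2A#2 against WT#1, and 1 in the comparison of MCM2-R#2 with MCM2-2A#2. Calls over all genes then went from 472 to 792 and from 234 to 584, from 51 to 87 in MCM2-R#2 against WT#1, and to 847 of 33789 genes in POLE4-KO#3. Without it Eomes (-0.59, adjusted p = 0.00011) and Wnt8a (-0.81, adjusted p = 0.0072) were called in the mean of the POLE4-KO clones. With the run set as a covariate MCM2-R#2 against WT#1 turned to 0.63 for T, 0.38 for Mixl1 and 0.14 for Fgf8. In MCM2-2A clones against WT clones Wnt8a turned to -0.013 without the filter, -0.0064 with DESeq2, -0.14 in August alone and -0.15 with single August libraries. In March alone Eomes (0.29), Wnt3 (0.25), Axin2 (0.27) and Lef1 (0.10) turned, and without WT#1 and MCM2-2A#2 Eomes (0.028) and Axin2 (0.11). Over all genes that comparison gave 158 calls, 445 with DESeq2, 998 with single libraries, 47 in August alone, 0 in March alone (295 at an unadjusted p under 0.05, edgeR, with 1 WT unit), 5 without both rescue lines and 26 (without WT#1) to 170 without 1 clone. DESeq2 called 383 genes in MCM2-R#2 against MCM2-2A#2. Correlated pairs went from 32 to 19 without WT#1 and WT#2. The cause of these changes was not tested.

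With a replicate block T in MCM2-R#2 against WT#1 turned to 0.020, and no rescue call changed. Numbers paired the rescue cultures in 5 of 12 same-number pairs, against 6 of 36 others. August libraries with the same number deviated together in 90 of 132 pairs of clones, against 0 of 132 others. Single August libraries with a replicate block called 1 gene, Sp5 (-2.11, adjusted p = 0.0058 by edgeR), and 536 genes in all. That setting takes libraries of a clone as separate units, and summed per clone August gave Sp5 at -2.06 (adjusted p = 0.13 by edgeR). The replicate block left 9 of the 10 genes different among POLE4-KO clones, 10 among WT clones and 7 among MCM2-2A clones. No paired analysis was possible against WT#1 in the POLE4 experiment because its columns carry other numbers.

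Leaving out 1 sample gave 0 calls in each rescue comparison and 1 to 4 calls in POLE4-KO#3 against WT#1. Calls over all genes went from 472 to 288 in MCM2-2A#2 against WT#1 without MCM2-2A#2 replicate 2, from 234 to 117 in MCM2-R#2 against MCM2-2A#2 without MCM2-2A#2 replicate 1, to 317 in POLE4-KO#3 without WT#1 replicate 8 and from 3589 to 2344 among MCM2-2A clones without MCM2-2A#5 replicate 2. The sign turned, in values that were not called, for Evx1 (-0.14 to 0.41) and Wnt8a (-0.049 to 0.27) in MCM2-2A#2 against WT#1, for Evx1 (-0.17 to 0.53) and Wnt8a (-0.17 to 0.34) between MCM2-R#2 and MCM2-2A#2, and for T (-0.56 to 0.057), Mixl1 (-0.31 to 0.22), Wnt8a (-0.050 to 0.47), Sp5 (-0.27 to 0.39) and Axin2 (-0.056 to 0.26) in MCM2-R#2 against WT#1. It turned for Evx1 in POLE4-KO#1 (-0.21 to 0.41) and for Evx1 (-0.26 to 0.093), Wnt3 (-0.17 to 0.058) and Axin2 (-0.053 to 0.039) in POLE4-KO#3. Between clone sets it turned for Eomes (-0.36 to 0.03), Wnt8a (-0.41 to 0.24), Axin2 (-0.16 to 0.11) and Lef1 (-0.33 to 0.11). Genes with under 10 counts a library, such as T and Fgf8 in POLE4-KO#1, have fold changes limited by depth.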
